A study of Mus musculus with 12 samples.

Results

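The genes described here are 9 markers of testis macrophages: Csf1r, Cd68, Cd14, Mrc1, C1qa, C1qb, C1qc, Lyz2 and Cx3cr1. They were taken by symbol from the gene rows of the deposited count table, which holds 20620 genes, and all 9 were present and passed the filter on low counts in both assays. The table covers whole testes of C57BL/6 mice at postnatal day 16, as total RNA and as ribosome footprints (the mRNA stretches that ribosomes shield from nuclease), with 3 libraries of each assay from Mael+/- and 3 from Mael-/- testes. MAEL is a germ cell protein needed for silencing of L1 retrotransposons, and the comparison asked how transcripts and their translation differ in testes that lack it. The control testes carried 1 mutant Mael allele, so neither genotype was wild type. Every extract was treated with cycloheximide, and the RNA and footprint libraries of a replicate were made from aliquots of testicular extract.

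Testis macrophages live in the interstitium, around the Leydig cells and blood vessels, and along the wall of the seminiferous tubules. They clear dead cells, present antigen to a limited degree and act on Leydig cells and spermatogonia. Their survival depends on the receptor encoded by Csf1r, which binds the cytokines CSF1 and IL-34. CD14 passes bacterial lipopolysaccharide to Toll-like receptor 4, the mannose receptor encoded by Mrc1 takes up glycoproteins, and CX3CR1 is the receptor for fractalkine. C1QA, C1QB and C1QC are the chains of C1q, the recognition part of the first complement component, while lysozyme (Lyz2) and CD68 are products of the secretory and lysosomal compartments.

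The 3 C1q genes lie together on chromosome 4 within 18.7 kb (136880126 to 136898844, GRCm38.p6, the RefSeq assembly that corresponds to mm10). Lyz2 lies on chromosome 10 (117277541 to 117282272), Mrc1 on chromosome 2 (14229414 to 14332023), Cd68 on chromosome 11 (69664213 to 69666170) and Cx3cr1 on chromosome 9 (120048683 to 120068296). Upstream sequence is given here for the 4 members whose RefSeq promoters carried AGGAAG within 250 bases upstream of the start. These letters are a form of the ETS family motif. PU.1 (Spi1), a transcription factor of the macrophage lineage, is a member of that family. Of the 6 member promoters that were read, 4 held the motif on either strand, beside 29.5% of 32851 promoters of all genes, and the motif was chosen after the sequences had been seen. Each stretch has 120 bases, 5′ to 3′ along the gene's own strand, with the motif or its reverse complement CTTCCT in capitals.

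C1qb, chr4:136886201-136886320 (- strand): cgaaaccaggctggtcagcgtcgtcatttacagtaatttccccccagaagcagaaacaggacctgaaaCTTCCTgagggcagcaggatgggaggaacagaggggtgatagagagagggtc
C1qc, chr4:136892989-136893108 (- strand): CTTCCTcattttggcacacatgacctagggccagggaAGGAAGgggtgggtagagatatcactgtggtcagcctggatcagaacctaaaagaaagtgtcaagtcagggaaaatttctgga
Lyz2, chr10:117282290-117282409 (- strand): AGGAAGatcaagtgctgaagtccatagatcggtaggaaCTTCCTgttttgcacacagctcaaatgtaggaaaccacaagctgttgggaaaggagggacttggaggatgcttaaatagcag
Mrc1, chr2:14229204-14229323 (+ strand): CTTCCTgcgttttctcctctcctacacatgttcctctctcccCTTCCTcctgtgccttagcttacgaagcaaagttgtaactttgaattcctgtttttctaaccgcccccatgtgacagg

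C1qb held 1 match, C1qc and Lyz2 held 2 each, and Mrc1 held 3, of which 2 are in the stretch shown. A match of these letters is a description of the sequence and says nothing about binding in the testis.

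The libraries held 13697267 to 27462358 gene counts for RNA and 7609932 to 13233565 for footprints. Mael itself had 3800 to 5045 counts in the Mael+/- RNA libraries against 0 to 2 in Mael-/-, and 660 to 1294 against 0 to 7 in footprints, which goes with the labels. The first Mael+/- extract stood apart in its germ cells: its summed pachytene spermatocyte markers reached 734.8 CPM (gene counts scaled to library size) in RNA, beside 284.9 and 303.1 in the other Mael+/- libraries and 233.4 to 266.7 in Mael-/-. Values of the macrophage genes without this extract are therefore given below.

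The macrophage genes were readily detected, except Cd14. Mrc1 had 1417 to 2554 RNA counts and 468 to 1723 footprint counts per library, and Csf1r, Lyz2 and the C1q genes had between 311 and 1488 RNA counts. Cd68 had 67 to 195 RNA counts and 46 to 177 footprint counts. Cd14 had 24 to 59 and 15 to 34, so counting error alone came to 25.8% at its lowest value, against 4.62% for Mrc1.

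Levels of different genes were compared as CPM per kilobase of mRNA (RNA) or of coding sequence (footprints). In Mael+/- RNA, Lyz2 was the most abundant member at 39.4 ± 10.8 CPM per kb (SD, n = 3), followed by C1qc (24.9 ± 9.30), C1qa (23.2 ± 5.78), C1qb (17.6 ± 6.27) and Mrc1 (13.7 ± 4.03). Csf1r stood at 8.01 ± 2.04, Cd68 at 4.75 ± 0.90, Cx3cr1 at 3.58 ± 1.23 and Cd14 at 0.70 ± 0.07 CPM per kb. From Lyz2 down to Mrc1, neighbours in this order overlapped between libraries, as did Cd68 and Cx3cr1, whereas Mrc1 and Csf1r, Csf1r and Cd68, and Cx3cr1 and Cd14 did not. The Mael-/- RNA libraries gave the same order, with Lyz2 at 48.3 ± 4.51 and Cd14 at 1.07 ± 0.29 CPM per kb, and with less overlap: only C1qc with C1qa and Cd68 with Cx3cr1 shared a range. In footprints Lyz2 again led, at 87.3 ± 33.2 in Mael+/- and 106.3 ± 4.37 CPM per kb in Mael-/-, and C1qa stood before C1qc in both genotypes. Cd14 was lowest in all 4 groups. Whole testis was sampled, so fewer cells of a type and less RNA per cell cannot be told apart.

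Csf1r, the receptor on which macrophage survival depends, measured 29.8, 23.8 and 39.5 CPM in the Mael+/- RNA libraries 1 to 3 and 40.5, 40.2 and 37.7 CPM in Mael-/-. Its footprints measured 36.0, 26.8 and 48.5 CPM against 56.9, 45.2 and 44.9. The first 2 Mael+/- libraries were thus the lowest in both assays, and the third lay among the Mael-/- libraries. The mean difference was a log2 fold change of 0.34 in RNA (SE 0.16, 95% CI -0.02 to 0.71, edgeR quasi-likelihood adjusted p = 0.938) and 0.40 in footprints (SE 0.19, 95% CI -0.02 to 0.81, adjusted p = 0.998).

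The C1q genes followed the same course. C1qa measured 20.1, 23.2 and 32.1 CPM in Mael+/- RNA and 29.0, 35.0 and 34.0 CPM in Mael-/-. C1qb measured 16.1, 14.9 and 27.4 against 22.5, 27.2 and 27.2 CPM, and C1qc 19.5, 21.7 and 37.5 against 30.5, 35.0 and 36.3 CPM. For each chain, Mael+/- libraries 1 and 2 lay below all Mael-/- libraries and library 3 lay within or above them. The log2 fold change in RNA was 0.38 for C1qa (95% CI 0.01 to 0.76, unadjusted p = 0.0471, edgeR adjusted p = 0.912), the only member with an unadjusted p under 0.05, and 0.40 for C1qb and 0.37 for C1qc, with intervals that included 0. In footprints, C1qa measured 31.5, 29.2 and 54.4 against 45.3, 45.2 and 48.6 CPM, C1qb 25.8, 22.6 and 41.2 against 33.3, 35.6 and 35.4, and C1qc 29.8, 29.3 and 51.2 against 42.1, 43.1 and 42.6. Here the third Mael+/- library was above every Mael-/- library for all 3 chains, and the log2 fold changes were 0.27, 0.21 and 0.21 (edgeR adjusted p = 0.998 each).

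Although the level of the C1q genes moved between extracts, their proportions moved less. Per kilobase, C1qa, C1qb and C1qc made up 35.5 ± 1.84%, 26.9 ± 1.35% and 37.6 ± 1.25% of C1q RNA over the 6 extracts (SD), and 37.3 ± 0.93%, 27.7 ± 0.76% and 35.0 ± 0.84% of C1q footprints. The C1qb share was the lowest of the 3 in every library, between 24.3% and 29.1%. The protein contains the chains in equal number. These shares depend on the 1 annotated transcript per gene used for length.

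**Figure D1:**
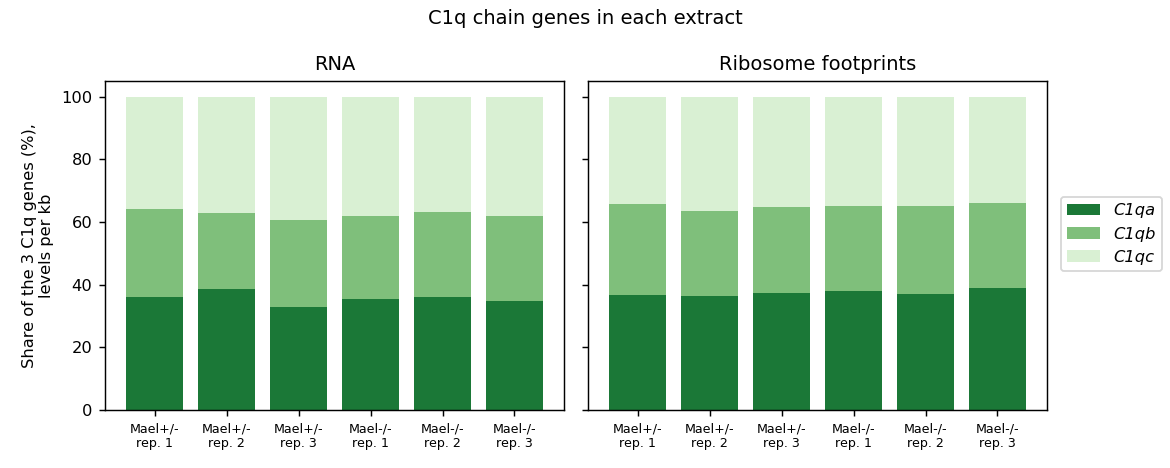
Share of each C1q gene in the summed level of the 3 genes (percent of CPM per kb, stacked bars) in the RNA (left) and footprint (right) library of each of the 6 extracts. C1qa ranged from 32.9% to 38.5% in RNA, and C1qb had the smallest share in every extract.

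Lyz2, which encodes the lysozyme of macrophages and other myeloid cells, measured 36.2, 33.8 and 54.8 CPM in Mael+/- RNA and 45.6, 53.5 and 54.1 CPM in Mael-/-, and its footprints 33.0, 28.1 and 55.9 against 45.3, 49.1 and 48.1 CPM. Its log2 fold change was 0.30 in RNA (SE 0.17, 95% CI -0.09 to 0.68, edgeR adjusted p = 0.972) and 0.27 in footprints. The level of Lyz2 is uncertain to the extent that reads shared with its close paralog Lyz1, which had too few counts for a test, could have been split or dropped in the counting. Mrc1, the mannose receptor gene, measured 65.2, 55.9 and 96.8 CPM in Mael+/- RNA and 103, 80.7 and 85.7 CPM in Mael-/-. Its footprints measured 88.8, 60.4 and 127 CPM against 131, 88.8 and 102. Mrc1 thus overlapped between genotypes, with log2 fold changes of 0.30 (95% CI -0.11 to 0.71) in RNA and 0.22 (95% CI -0.29 to 0.72) in footprints.

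Cx3cr1, the fractalkine receptor gene, measured 10.7, 10.9 and 18.8 CPM in Mael+/- RNA and 18.1, 16.7 and 15.9 CPM in Mael-/-, with footprints of 8.18, 7.10 and 14.0 against 14.6, 10.9 and 13 CPM. The third Mael+/- library was 1.74 times the mean of the other two in RNA and 1.83 times in footprints. The log2 fold change was 0.33 in RNA (95% CI -0.14 to 0.79) and 0.39 in footprints (95% CI -0.14 to 0.91).

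Cd68 and Cd14 departed from the other 7 in RNA. Cd68 measured 5.47, 5.09 and 7.20 CPM in Mael+/- and 4.85, 5.75 and 7.10 CPM in Mael-/-, so the genotypes coincided, with a log2 fold change of 0.005 (SE 0.21, 95% CI -0.45 to 0.46) whose sign turned under 6 of the 13 alternative settings. Its footprints measured 6.91, 5.94 and 15 CPM against 13.4, 9.58 and 8.52, and the third Mael+/- library was the highest of the 6. Cd14 measured 1.042, 1.246 and 1.213 CPM in Mael+/- RNA and 1.954, 1.239 and 2.147 CPM in Mael-/-. Its log2 fold change was the largest of the members at 0.61, with the widest RNA interval (95% CI -0.03 to 1.25, edgeR adjusted p = 0.938), and in footprints, at 2.44, 1.94 and 2.64 against 2.58, 2.0 and 2.25 CPM, it was -0.04.

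**Figure D2:**
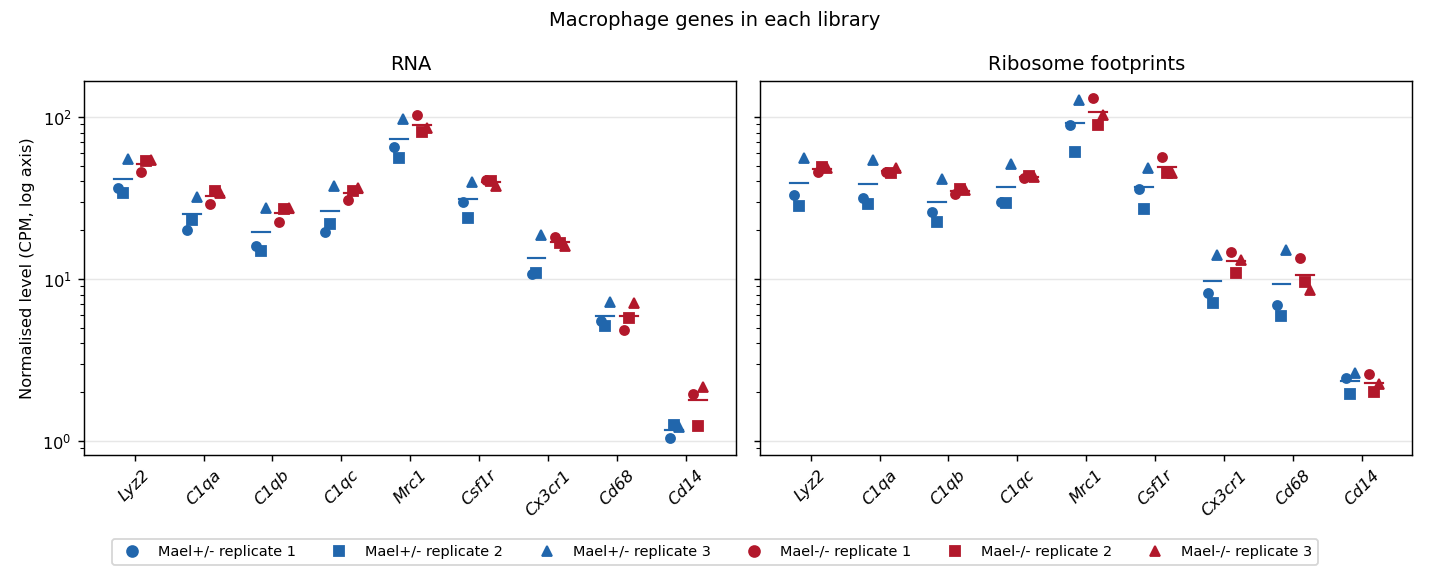
Normalised level (CPM, log axis) of the 9 genes in each RNA library (left) and each footprint library (right), with Mael+/- in blue and Mael-/- in red, replicates 1, 2 and 3 as circles, squares and triangles, and the mean of 3 libraries as a bar. For most genes the blue circle and square lie below the red points and the blue triangle lies among or above them, as for C1qc RNA at 19.5, 21.7 and 37.5 CPM in Mael+/-.

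None of the 9 genes was called different between genotypes. In RNA, 0 of 9 members and 17 of 14685 genes (0.116%) passed an adjusted p of 0.05 in edgeR, and 1 member had an unadjusted p under 0.05, beside 5.41% of all genes. DESeq2 and limma voom also called 0 of 9, with 2 members each at an unadjusted p under 0.05, beside 4.96% and 5.77% of all genes. All 9 fold changes in RNA were positive, with a median log2 value of 0.34 (1.27-fold), while the median of all genes tested was -0.01 and 47.7% of them were positive. The members move together between extracts and so do not count as 9 separate observations. In footprints, 0 of 9 members and 8 of 13500 genes (0.0593%) were called in edgeR, and 0 members had an unadjusted p under 0.05 (4.33% of all genes). DESeq2 had 1 member under 0.05 (3.41% of all genes) and limma voom 0 (3.7%). The median log2 fold change of the members in footprints was 0.22, with 8 of 9 positive, beside 47.5% of all genes. The upper bounds of the intervals in RNA, from 0.46 for Cd68 to 1.25 for Cd14 on the log2 scale, are the largest increases that these intervals hold.

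**Figure D3:**
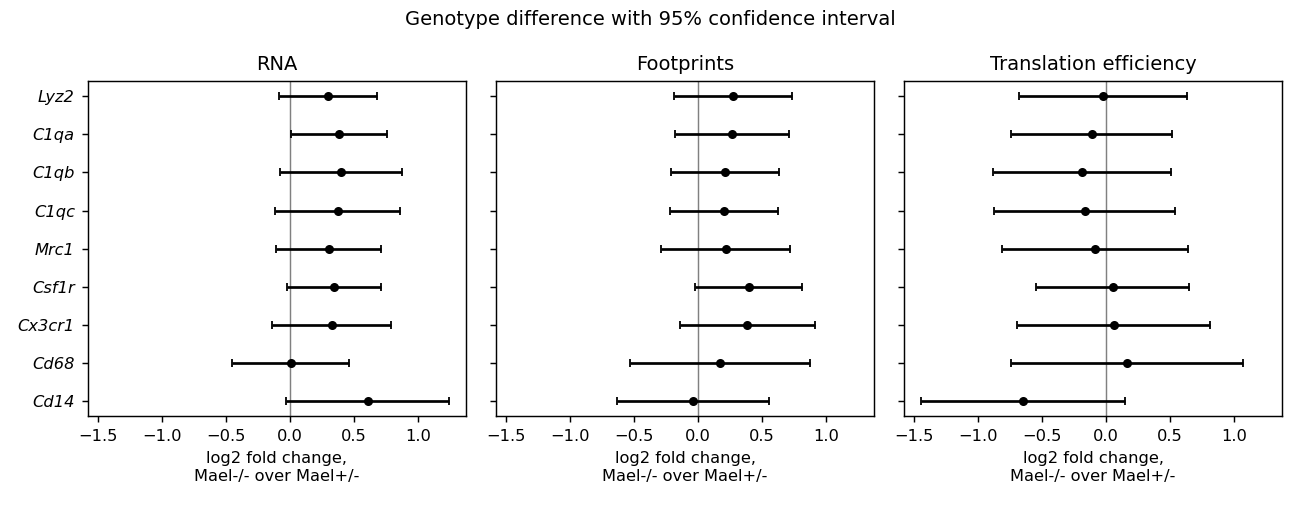
Log2 fold change of Mael-/- over Mael+/- (points) with 95% confidence intervals from edgeR (bars) for each gene in the 3 comparisons (RNA, footprints, translation efficiency), from 3 replicates of each group. Only the RNA interval of C1qa, 0.01 to 0.76, leaves out 0, and its adjusted p was 0.912.

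The spread of the members within Mael+/- was as large as the difference between genotypes. The summed level of the 9 genes was 204, 190.6 and 315.2 CPM in the Mael+/- RNA libraries (mean 236.6 ± 68.4, SD, n = 3) and 295.5, 295.2 and 300.1 CPM in Mael-/- (296.9 ± 2.74). In footprints it was 262.4, 211.4 and 410.1 CPM in Mael+/- (294.6 ± 103.2) and 384, 329.6 and 345.5 CPM in Mael-/- (353 ± 28). Within Mael+/- RNA, replicate 3 was the highest for 8 of 9 members (28.9% of all genes) and 1.56 times the mean of replicates 1 and 2 in the median member, from 1.06 for Cd14 to 1.82 for C1qc. In footprints it was the highest for 9 of 9 (29.8% of all genes), at a median of 1.74 times, from 1.2 for Cd14 to 2.34 for Cd68. In the median gene of the whole table the same ratio was 0.99 in RNA and 0.98 in footprints. Relative to Mael+/- replicate 3, the Mael-/- mean of the median member was 0.93 times as high in RNA and 0.85 times in footprints.

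For 0 of 9 members did all Mael-/- libraries exceed all Mael+/- libraries, in RNA (4.77% of all genes) or in footprints (4.19%). Without Mael+/- replicate 3, a comparison picked after the values were seen, they did so for 7 members in RNA (13.2% of all genes), namely Csf1r, Mrc1, C1qa, C1qb, C1qc, Lyz2 and Cx3cr1. In footprints it was also 7 (13.6% of all genes), with Cd68 in place of Mrc1. The choice of the library left out fixes that direction, so these counts are a description. Without that library the median log2 fold change of the members rose from 0.34 to 0.60 in RNA, where 7 members then had an unadjusted p under 0.05 (9.94% of all genes) and 0 were called (lowest edgeR adjusted p = 0.228), and from 0.22 to 0.61 in footprints, where 8 members did (10% of all genes) and 0 were called (lowest edgeR adjusted p = 0.201). Without Mael+/- replicate 2 the medians fell to 0.19 and 0.07. Without Mael+/- replicate 1, the extract with the high pachytene markers, they were 0.23 and 0.13.

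The other immune and somatic cell types were followed through the same extracts. Over a list of 24 other macrophage genes, the summed RNA level was 222.4, 188.3 and 300.5 CPM in Mael+/- and 298.7, 273.5 and 277.5 CPM in Mael-/-. All 24 fold changes were positive in RNA (median log2 0.26) and 22 in footprints (median 0.17), and 0 passed the test in either assay (2 and 0 with an unadjusted p under 0.05 in edgeR). Across the 13 alternative settings, 19 to 24 of these genes had a positive value in RNA, and 14 to 23 had one among footprints, the lowest of each being the fit without Mael+/- replicate 2. The most abundant genes of the list were Mpeg1, which encodes a pore-forming protein of macrophages, at 47.0 ± 7.25 CPM in Mael+/- and 53.1 ± 14.2 CPM in Mael-/- RNA, and F13a1, the coagulation factor XIII subunit, at 38.2 ± 13 and 45.7 ± 3.65 CPM.

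MHC class II genes took a partly different course from the 9 members. The list of 8 genes also holds Itgax, an integrin gene that is not of the MHC. It summed to 34.3, 21.4 and 33.9 CPM in Mael+/- RNA and 29.9, 33.9 and 34.4 CPM in Mael-/-, so that only the second Mael+/- library was low. The median log2 fold change was 0.03 in RNA, with 5 of 8 positive and 0 called (0 with an unadjusted p under 0.05). In footprints it was 0.22, with 3 of 5 tested genes positive and 0 called, and the median of the 9 members there was also 0.22. H2-Ab1 measured 10.3 ± 2.6 CPM in Mael+/- and 10.2 ± 1.49 CPM in Mael-/-, and Cd74, the invariant chain, measured 6.82 ± 2.23 and 8.11 ± 0.70 CPM.

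Leydig cell markers summed to 324.5, 386.8 and 540.5 CPM in Mael+/- RNA, which is the same order of high and low as for the macrophage genes except that the first was lower than the second. In Mael-/- they summed to 270.7, 444.4 and 526.9 CPM, and there the macrophage genes stayed within 295.2 to 300.1 CPM. Endothelial markers summed to 94.8 to 115 CPM in Mael+/- and 104 to 117.1 CPM in Mael-/-, and Sertoli markers to 1396 to 1558 and 1441 to 1530 CPM. Spermatogonial markers summed to 665.1 to 833.8 and 686.3 to 738.5 CPM, and early meiotic markers to 341.6 to 877.1 and 346.3 to 497.4 CPM, the 877.1 CPM being the first Mael+/- extract. Peritubular myoid markers summed to 872.3 to 917.4 CPM in Mael+/- and 984.4 to 1031 CPM in Mael-/- RNA, with 5 of 5 fold changes positive (median log2 0.20), 2 with an unadjusted p under 0.05 and 0 called in edgeR. The part of any of these in the levels of the macrophage genes was not tested. Scaling to the Sertoli markers in place of all genes moved the members' median from 0.34 to 0.33 in RNA.

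Markers of other blood cells were scarce. T and NK cell markers summed to 3.30 to 4.32 CPM over the 6 RNA libraries, B cell markers to 0.48 to 1.81 and neutrophil markers to 0.08 to 1.38 CPM, with 5 of 8 neutrophil markers at 3 counts or fewer in every RNA library. Of the erythroid markers, the 4 globin genes are listed at 0 in all 12 libraries, which may not mean low expression, and Alas2 measured 7.56 ± 3.26 and 7.11 ± 1.40 CPM in Mael+/- and Mael-/- RNA. Neutrophils also express Lyz2, and the cell source of its RNA was not tested. Mast cell markers were low, with 11 to 31 summed RNA counts per library in Mael+/- and 32 to 50 in Mael-/-. Their sums of 0.40 to 1.18 CPM in Mael+/- and 1.82 to 2.32 CPM in Mael-/- RNA did not overlap. The peritubular myoid RNA sums did not overlap either, but their footprint sums did (1136 to 1418 CPM in Mael+/-, 1388 to 1733 CPM in Mael-/-). Pachytene RNA sums were apart in the other direction, at 284.9 to 734.8 CPM in Mael+/- and 233.4 to 266.7 CPM in Mael-/-. No share of such cases was computed for list sums. Of single genes, 4.77% had all Mael-/- RNA libraries above all Mael+/- RNA libraries. Of the 5 mast cell markers, 2 had enough counts for the test in RNA and 1 in footprints. Mcpt4, a mast cell protease, had the lower adjusted p of the 2 in RNA and was the one tested in footprints, so it does not stand for the list. It had 4, 4 and 8 counts against 7, 16 and 17 in RNA and 5, 1 and 4 against 34, 14 and 16 in footprints (edgeR adjusted p = 0.601 and 0.330).

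**Figure D4:**
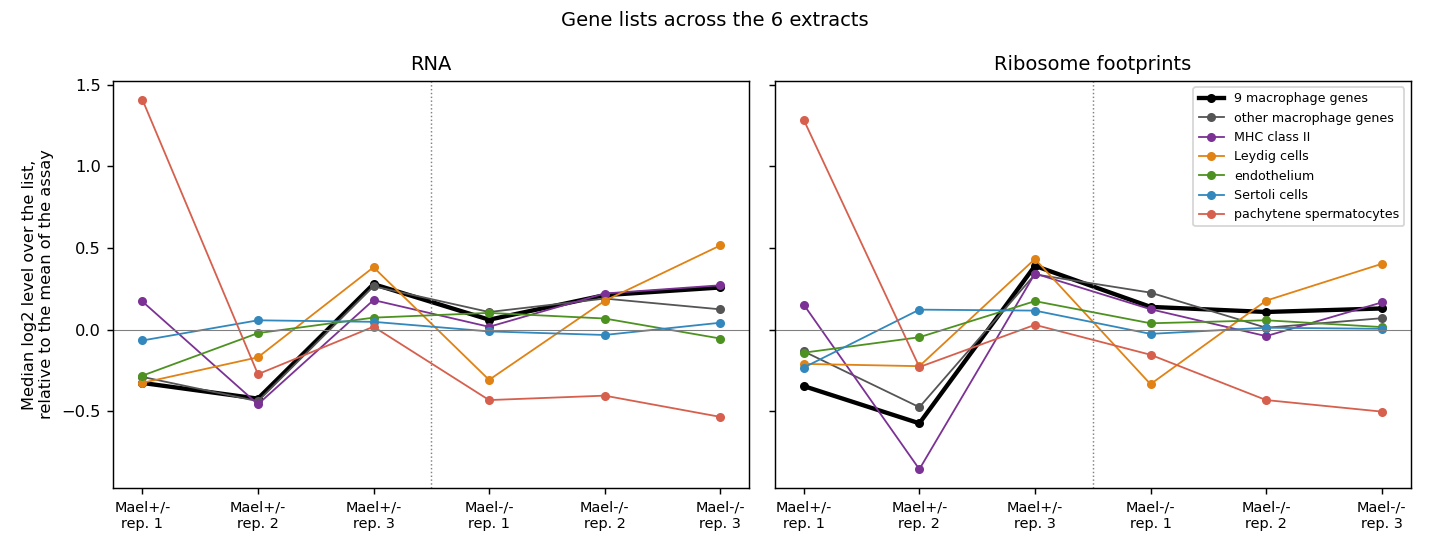
Median log2 level of each gene list relative to its mean over the 6 libraries of the assay (vertical axis) in each Mael+/- and Mael-/- replicate (horizontal axis), for RNA (left) and footprints (right). The 9 macrophage genes (thick black line) lie at -0.33, -0.42 and 0.28 in Mael+/- RNA and at 0.06 to 0.26 in Mael-/-, and the pachytene list peaks in the first Mael+/- extract.

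Genes of the pathways in which the members act were next examined, by role. Of 10 genes of the CSF1 receptor pathway, 6 had a positive fold change in RNA (median log2 0.09) and 0 were called. The ligand gene Csf1, named here after its values were seen, had 534, 475 and 620 RNA counts in Mael+/- and 409, 456 and 740 in Mael-/-, or 21.4 and 26.4 CPM on average (log2 fold change 0.30, SE 0.15, edgeR adjusted p = 0.948). Il34, the other ligand gene, had 9 to 26 RNA counts per library. Spi1, the gene of PU.1, averaged 3.32 CPM in Mael+/- and 4.36 CPM in Mael-/- (log2 fold change 0.39, SE 0.25). Cebpa, the gene of a transcription factor of the myeloid lineage, measured 25.8 ± 9.50 CPM in Mael+/- and 25.1 ± 8.94 CPM in Mael-/- RNA.

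Of 14 further complement genes, 11 were positive in RNA (median log2 0.11) and 0 were called. In footprints 10 of 13 tested were positive (median log2 0.19) and 0 were called. C1s1, a serine protease that joins C1q in the first component, measured 80.7 ± 9.71 CPM in Mael+/- and 87.4 ± 8.99 CPM in Mael-/-, and Serping1, the inhibitor of that complex, 71.5 ± 6.21 and 75.4 ± 2.44 CPM. Relative to their means, both spread less between Mael+/- libraries than the C1q genes did. The lipopolysaccharide recognition list was balanced, with 6 of 11 positive (median log2 0.01, 0 called), and its most abundant genes were the signalling genes Irak1 and Traf6 at 59.8 ± 7.72 and 38.2 ± 2.35 CPM in Mael+/- and 57.8 ± 1.19 and 36.2 ± 2.39 CPM in Mael-/-. Of 7 genes around fractalkine and other chemokines, 4 were positive and 0 were called, with 1 at an unadjusted p under 0.05 in edgeR. Adam10 and Adam17, the proteases that shed fractalkine, measured 151.9 ± 29.4 and 130 ± 1.81 CPM in Mael+/- and 148.8 ± 26.7 and 133.9 ± 5.27 CPM in Mael-/-.

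Scavenger and phagocytic receptors (6 of 10 positive, median log2 0.06) and lysosomal genes (5 of 9 tested positive, median 0.01) gave 0 calls as well. In RNA, 1 gene of the first list and 0 of the second had an unadjusted p under 0.05 in edgeR, beside 5.41% of all genes. Axl and Tyro3, receptors for apoptotic cells that Sertoli cells also express, measured 496.3 ± 75 and 493.7 ± 79.9 CPM in Mael+/- and 492 ± 21.4 and 479.3 ± 45.5 CPM in Mael-/-. Ctsl and Psap, a cathepsin and a sphingolipid activator precursor, measured 1576 ± 227 and 1084 ± 92.6 CPM against 1541 ± 154 and 1107 ± 62.3 CPM. Both lists hold genes that many cell types of the testis use.

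Footprints were then set against RNA for each member. Per kilobase, the ratio of footprints to RNA averaged 1.6 ± 0.14 for Csf1r (SD over 6 extracts) and 1.49 ± 0.14 for Mrc1, which put them at the 37.5th and 31.1st percentile of 11875 genes with at least 20 counts in every library, whose median ratio was 1.85. C1qa (2.15 ± 0.25), C1qb (2.10 ± 0.18), C1qc (1.90 ± 0.18) and Lyz2 (2.19 ± 0.16) lay at the 62.3rd, 60.6th, 52.7th and 63.6th percentile. Cx3cr1 had the highest ratio among the members with that depth, 2.61 ± 0.26, at the 74.3rd percentile, and Cd68 varied most, at 2.15 ± 0.81. On this scale the means of Csf1r and Mrc1 were below those of the secreted C1q chains and lysozyme, with overlap between single extracts for Csf1r. The mean of Cx3cr1, also a receptor gene, was above those of the C1q genes and Lyz2, and no test between genes was made. The order depends on the division by length: without it, Cx3cr1 fell to the 29.5th percentile and Csf1r stood at the 71.1st.

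**Figure D5:**
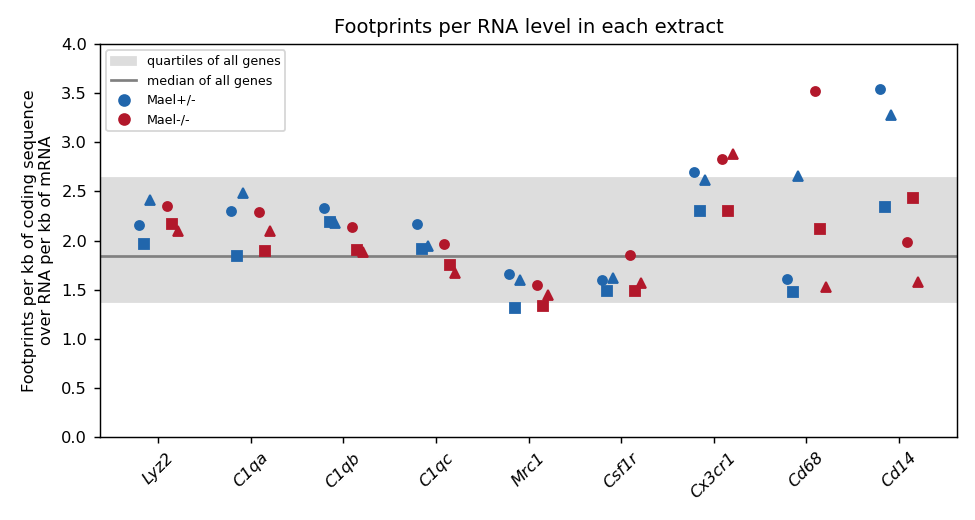
Ratio of footprints per kb of coding sequence to RNA per kb of mRNA for each gene in each of the 6 extracts (blue Mael+/-, red Mael-/-, with replicates 1, 2 and 3 as circles, squares and triangles), with the median (1.85, line) and the quartiles (1.37 to 2.64, grey band) of 11875 genes. Most values of the 9 genes lie inside the band, and Cd68 and Cd14 scatter the widest.

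Translation efficiency, the genotype difference in footprints beyond that in RNA, was tested in 1 model over all 12 libraries. In this test 0 of 9 members and 0 of 14374 genes (0%) passed an adjusted p of 0.05 in edgeR, and 0 members and 78 genes had an unadjusted p under 0.05. DESeq2 and limma voom called 0 genes too. The log2 changes were 0.05 for Csf1r, 0.17 for Cd68, -0.09 for Mrc1, -0.11 for C1qa, -0.19 for C1qb, -0.17 for C1qc, -0.02 for Lyz2 and 0.06 for Cx3cr1, and each interval included 0, as for C1qc (95% CI -0.87 to 0.54). Cd14 had the largest, -0.65 (95% CI -1.45 to 0.15), at 15 to 34 footprint counts per library. With the extract as a block, the intervals narrowed, for C1qc to -0.40 to 0.08 around -0.16 and for Mrc1 to -0.30 to 0.14 around -0.08, and 0 members were called. Without both libraries of the first Mael+/- extract, the median of the members was -0.05, beside -0.09 over all libraries, and -0.02 with the block.

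To find genes with a like profile, the log2 CPM of each gene over the 12 libraries, centred within each assay, was compared with the mean of the 9 members. Among 724 genes with enough counts and at least the same spread, the nearest 5 were Col15a1, Efemp1, Soat1, Myoz2 and Frzb, with root mean square differences of 0.07, 0.09, 0.09, 0.10 and 0.10 on the log2 scale. The median of the 724 genes was 0.52, and the members themselves lay between 0.09 for Lyz2 and 0.25 for Cd14. Col15a1 (a basement membrane collagen) measured 47.3 CPM in Mael+/- and 58.6 CPM in Mael-/- RNA, and Soat1, which esterifies cholesterol, 274.2 and 317.9 CPM. Of the other macrophage genes, 13 could be ranked, with Emr1 (also Adgre1, the F4/80 antigen) at rank 7 and Cd53 at rank 110. The 12 points come from 6 extracts, and the measure describes likeness of profile alone.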

How the data were processed

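Total RNA and ribosome footprints of P16 testes were analysed from the gene rows of 1 deposited table of whole-number counts. Per the labels and the study's methods, the authors removed rRNA reads from the footprint libraries with Bowtie 1.2.2 (the RNA libraries were depleted of rRNA by kit), aligned to mm10 with STAR 2.6.0c and made the counts with featureCounts (Subread 1.6.4), from entire transcripts in the RNA libraries but only from coding sequence in the footprint libraries, so the 2 assays differ in the length counted. Whether duplicate reads were collapsed is not given in the sources used here. The authors' DESeq2 1.24.0 tables hold their own comparisons and were not used. Repeat rows (7.65 to 13.6% of the counts per library) stayed out of library sizes.

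Genes were filtered with filterByExpr, scaled by TMM within each assay and tested with edgeR 4.0.16 (quasi-likelihood, R 4.3.3, Benjamini-Hochberg over all genes, threshold 0.05) with 3 against 3 libraries, and for translation efficiency with a genotype by assay interaction over all 12. SEs were derived from the F statistic. DESeq2 1.42.0, limma 3.58.1 (voom with quality weights), other scalings and filters, a replicate block and leaving out each library were alternatives, and the code was tested on simulated data. Lengths and promoters came from RefSeq (GRCm38.p6, 1 curated transcript per member), with 6 member promoters read. The members and lists were chosen with earlier results of these data known. All members were named with their values, and of each other list any called gene and the 2 most abundant in RNA; Csf1, Il34 and Spi1 were added after their values were seen. One gene that this rule would name is not reported here. The 5 genes nearest in profile were taken by root mean square difference. By the study's methods RNA and footprints came from the same extracts, and libraries of 1 number were taken here as 1 extract. Over 13463 genes, their deviations from the group means had a Pearson r of 0.626 to 0.781 in Mael+/- but 0.225 to 0.247 in Mael-/-. Libraries of 1 number and assay from different genotypes gave -0.01 to 0.22. The matching of numbers to extracts was not tested further. Replicates are called biological, and the number of animals per extract is not given in the sources used here. Intervals cover the spread between these libraries, and counting errors cover counting only.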

Additional observations from a re-analysis of the deposited data

How the results depend on the processing

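Under every alternative tried, 0 of the members tested and 0 genes of the pathway lists were called (9 members tested, but 8, without Cd14, with a mean of at least 50 counts). The members' median log2 fold change stayed positive, from 0.31 to 0.37 in RNA and 0.18 to 0.26 in footprints under other tools, scalings and filters, and from 0.19 to 0.60 and from 0.07 to 0.61 when 1 library was left out. In translation efficiency it ranged from -0.33 to 0.23, the ends being the fits without the RNA or the footprint library of Mael+/- replicate 3. Signs turned in 6 of 116 member values in RNA (all Cd68), 6 of 116 in footprints and 26 of 179 in translation efficiency.

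Over all genes, the 17 calls in RNA became 58 (32 higher in Mael-/-) with DESeq2, 4 with a mean of at least 50 counts, 35 (29 higher) with limma voom and 11 with Sertoli scaling, and 2 to 59 without 1 library. The 8 calls in footprints became 21 with DESeq2, 1 with a mean of at least 50 counts, and 2 to 17 without 1 library. The labels link Mael-/- and Mael+/- libraries of 1 number by that number alone (r -0.01 to 0.22). Whether they also shared a litter or a batch is not given in the sources used here. With the replicate block, 48 genes were called in RNA (24 higher) and 22 in footprints (7 higher), and the members' median was 0.37 and 0.26. In that fit 6 members had an unadjusted p under 0.05 in RNA, beside 6.71% of all genes (lowest edgeR adjusted p = 0.487). In footprints 1 member did, beside 5.49% of all genes. With the extract as replicate block for translation efficiency, 0 genes were called and the members' median was -0.08.

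Without division by length, footprints per RNA relative to the median gene moved from 0.87 to 1.27 for Csf1r, 1.16 to 1.77 for Cd68, 0.80 to 1.28 for Mrc1, 1.17 to 1.54 for C1qa, 1.14 to 1.52 for C1qb, 1.03 to 1.40 for C1qc, 1.19 to 0.97 for Lyz2 and 1.41 to 0.78 for Cx3cr1, as coding and mRNA lengths differ by gene. The cause of the other moved values was not tested. Precision was limited by 3 libraries per group, with the medians moved most by Mael+/- replicates 2 and 3, and for Cd14 and Cd68 by counts. Scaling without TMM factors changed no direction of a level ratio beyond that of Cd68 in RNA, which lay near 0 (-0.006 and 0.009).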
